A study of Homo sapiens with 6 samples.

Results

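Tight junctions and desmosomes are the contacts that seal and hold together epithelial cells, and 37 genes encoding their parts and regulators were examined by RNA sequencing in RKO cells with a hairpin against TRIM21. The members were the rows whose symbol equalled a fixed list of claudins, tight junction scaffolds, desmosomal proteins and epithelial junction regulators. All 37 symbols were among the 28278 rows, and 31 of them passed the filter on low counts that left 15131 tested genes. RKO is an established line from a poorly differentiated human colon carcinoma. The shTRIM21 libraries came from RKO cells carrying, by lentivirus, a short hairpin RNA specific for TRIM21, a cytosolic antibody receptor and E3 ubiquitin ligase. The shControl libraries came from RKO cells carrying a scrambled hairpin by the same route, which the labels call wild type. There were 3 libraries of each kind, and both kinds of cells had been selected in puromycin at 5 µg/ml from 36 h after infection, for 2 to 3 weeks. The labels describe the replicates as biological without saying that they came from separate infections, so the p-values measure the spread between these libraries.

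In an epithelium, claudins and the MARVEL-domain proteins such as occludin form the sealing strands of the tight junction, and scaffold proteins of the ZO and cingulin families tie the strands to actin. Desmosomes lie below them. Their cadherins, the desmogleins and desmocollins, reach across to the neighbouring cell, while plakoglobin, the plakophilins and desmoplakin connect the cadherins to keratin filaments. Transcription factors of the grainyhead-like family and the splicing factors ESRP1 and ESRP2 are known for sustaining this programme, and the membrane protease matriptase and its inhibitors act on the cell surface of such epithelia.

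The libraries held 33499827 to 38051662 counts in shTRIM21 and 33829727 to 44466137 in shControl. Ribosomal RNA rows took 17.0% to 23.5% of the counts in shTRIM21 and 14.7% to 36.9% in shControl, where replicates 1 and 3 had the larger shares and replicate 2 the lowest of all 6 libraries. Without these rows, depth ran from 27808151 to 29100459 counts. Levels are given in CPM, counts scaled to the library's size after TMM, a method that trims extreme genes before it sets the scale. TRIM21 itself had 7.97, 6.92 and 7.85 CPM in shTRIM21, against 12.2, 11.5 and 9.47 CPM in shControl, without overlap; it fell by 0.54 on the log2 scale with an SE of 0.12 (edgeR adjusted p = 0.00424). The epithelial markers KRT8, KRT18, KRT19, CDX2, VIL1, CDH1 and EPCAM were counted in every library, whereas LGALS4 was listed at 0 and CDH17 had at most 2 counts. Summed over 10 epithelial markers, levels were 4639 to 4881 CPM in shTRIM21 and 5971 to 6637 CPM in shControl. Most of that sum came from KRT8, KRT18 and KRT19, with log2 fold changes of shTRIM21 over shControl of -0.44, -0.46 and -0.38. The markers did not move together: CDH1 was at 0.57, EPCAM at 0.13, VIL1 at -0.053 and CDX2 at -0.0044. KRT20, also counted in every library, was at 0.98 (edgeR adjusted p = 0.0984). The summed level of 8 fibroblast markers was 10.5 to 11.1 CPM in shTRIM21 against 6.15 to 9.19 CPM in shControl, nearly all from COL1A1, with DCN, LUM and THY1 at 0. For 7 endothelial markers the sums were 6.58 to 7.56 CPM in shTRIM21 against 6.41 to 7.35 CPM in shControl, with CDH5 at 0, and for 8 leukocyte markers 6.29 to 7.30 CPM in shTRIM21 against 7.62 to 8.88 CPM in shControl, with CD3E and MS4A1 at 0.

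Of the 31 tested members, 9 were higher and 3 lower in shTRIM21, and 19 did not pass the test (called by edgeR's quasi-likelihood method at an adjusted p under 0.05 over all tested genes). The higher members were the claudin CLDN3, the scaffold TJP3, the desmosomal plaque genes JUP and PKP3, the transcription factors GRHL2 and ELF3, the matriptase gene ST14 with its inhibitor SPINT1, and RAB25. The lower members were the desmosomal genes DSG2 and PKP2 and the inhibitor SPINT2. These 12 were 38.7% of the tested members, beside 20.8% of all tested genes; by direction the background was 9.77% higher and 11.0% lower. Most members were well counted, and among the 30 with a mean of at least 5 CPM the called share was 40.0%, beside 24.6% of the 11097 tested genes at that level. The groups did not overlap for 14 members (45.2%), beside 37.7% of all tested genes, and all 14 were among the 30, where the background was 41.7%. These shares describe a list chosen with earlier results of these data known, and they support nothing beyond that list. Without shTRIM21 replicate 2 the counts were 5 members higher and 1 lower, when 12% of all tested genes were called. With library sizes alone 7 members were higher and 0 lower, when 13% of all tested genes were called. As cells were measured in bulk, fewer cells expressing a gene and less of its RNA per cell cannot be told apart. All changes were small. The called members moved between 1.11-fold and 1.42-fold, with a median size of 1.22-fold, and none reached 1.5-fold, while the median size over all 3146 called genes was 1.28-fold. The median log2 fold change of shTRIM21 over shControl was 0.051 over the tested members and 0.0054 over all tested genes. The members' median ran from 0.025 (without shTRIM21 replicate 3) to 0.077 (without shTRIM21 replicate 1) when single libraries were left out. It was 0.026 without shControl replicate 2. The main value of 0.051 was smaller than 0.072, the SD between libraries of a group in the members' median log2 CPM. That SD is of levels in single libraries, not of a fold change between groups. The labels name 1 hairpin treatment per arm, so an effect of lower TRIM21 and another effect of that hairpin cannot be told apart.

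**Figure D1:**
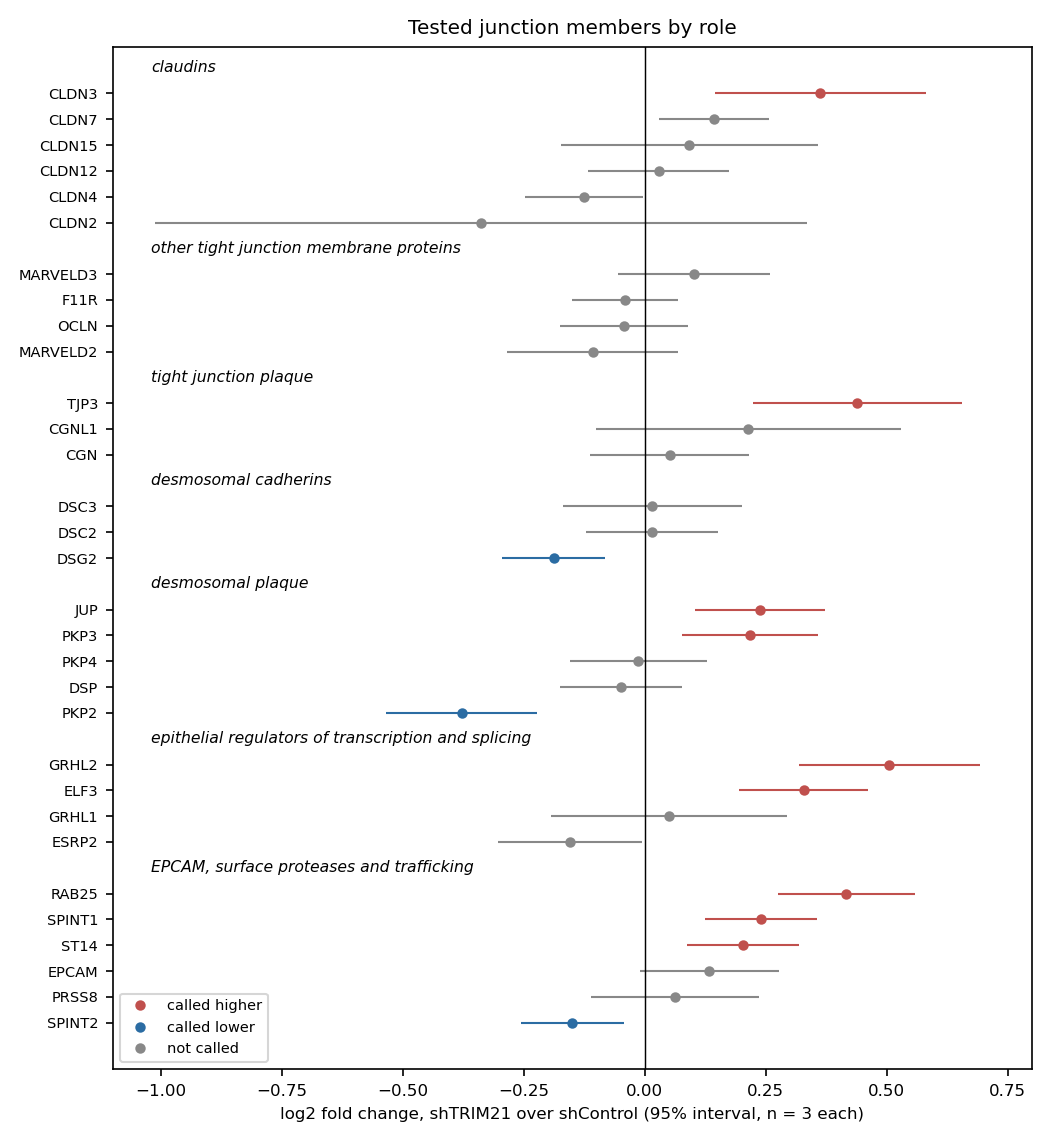
Log2 fold change of shTRIM21 over shControl (horizontal axis) with its 95% interval for the 31 tested members, grouped by role; n = 3 libraries each. The 9 members called higher run from 0.20 (ST14) to 0.51 (GRHL2) and the 3 called lower from -0.15 (SPINT2) to -0.38 (PKP2); with library sizes alone DSG2 and SPINT2 lie above 0.

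Among the claudins, the proteins that form the sealing strands, 1 of 6 tested members rose and 0 fell, a called share of 16.7% beside 20.8% of all tested genes. CLDN3, on chromosome 7 at 73768997 to 73770270 (GRCh38.p14) and overlapped by no other annotated gene, had 19.9, 21.0 and 20.6 CPM in shTRIM21, against 16.3, 18.2 and 13.3 CPM in shControl. Every shTRIM21 library lay above every shControl library, and the shControl libraries were the more scattered. The rise of CLDN3 was 1.29-fold, a log2 fold change of 0.36 with an SE of 0.10 (edgeR adjusted p = 0.0207). Without shControl replicate 3, the lowest library, the log2 fold change was 0.24 and the call was lost (edgeR adjusted p = 0.0983). The call was also lost without shTRIM21 replicate 2, without shTRIM21 replicate 3, and without shControl replicates 1 and 3, where the value was 0.16. CLDN4, also on chromosome 7 at 73830996 to 73832690, had 165, 164 and 174 CPM in shTRIM21, against 195, 171 and 182 CPM in shControl. Its groups overlapped and its log2 fold change of -0.13 (0.092 with library sizes alone) was not called (edgeR adjusted p = 0.133).

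CLDN7, an abundant claudin of colon epithelium, had 143, 149 and 138 CPM in shTRIM21 and 133, 126 and 132 CPM in shControl. The groups did not overlap, but the log2 fold change of 0.14 (SE 0.053) was not called (edgeR adjusted p = 0.0700); it was called with upper-quartile scaling (0.18, edgeR adjusted p = 0.0228) and without shTRIM21 replicate 3 (0.17, edgeR adjusted p = 0.0496). CLDN7 overlaps ELP5, so reads of the 2 genes may be counted together. CLDN12 had 31.8, 35.1 and 31.4 CPM in shTRIM21 and 32.7, 32.6 and 31.1 CPM in shControl, with a 95% interval of -0.12 to 0.17 on the log2 scale. CLDN15, a claudin that forms cation channels, averaged 8.08 ± 1.10 CPM in shTRIM21 and 7.58 ± 0.610 CPM in shControl (SD, n = 3 each). The pore-forming CLDN2 was near 1 CPM, 0.927 ± 0.184 in shTRIM21 and 1.17 ± 0.359 in shControl, and its interval of -1.01 to 0.34 was the widest of the members. Not tested were CLDN1, with 0, 4 and 4 counts in shTRIM21 and 3, 0 and 0 in shControl, and CLDN6, with 0, 5 and 0 counts in shTRIM21 and 5, 1 and 7 in shControl. CLDN23 was listed at 0 in every library.

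No gene for the other tight junction membrane proteins passed the test. Occludin, OCLN, gave 34.1, 34.1 and 33.9 CPM in shTRIM21 and 34.3, 36.2 and 34.6 CPM in shControl. Although its groups did not overlap, the distance between them was small beside the spread (log2 fold change -0.043, 95% interval -0.18 to 0.089). MARVELD2, or tricellulin, which sits where 3 cells meet, had 28.4, 25.7 and 30.8 CPM in shTRIM21 against 29.6, 33.3 and 28.5 CPM in shControl, and MARVELD3 averaged 26.6 ± 1.33 CPM in shTRIM21 and 24.8 ± 1.17 CPM in shControl (SD, n = 3 each). F11R, encoding the immunoglobulin-type adhesion protein JAM-A, had 100.4, 98.5 and 97.4 CPM in shTRIM21 against 101, 99.4 and 105 CPM in shControl. Both MARVELD2 and F11R had overlapping groups, with 95% intervals of -0.28 to 0.069 and -0.15 to 0.068 on the log2 scale.

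Of the plaque proteins under the tight junction, TJP3 rose. TJP3, or ZO-3, a scaffold that binds claudins and occludin, had 32.1, 31.9 and 32.8 CPM in shTRIM21, against 28.7, 20.3 and 22.4 CPM in shControl. The shTRIM21 libraries were within 1 CPM of each other and all above the shControl libraries, of which replicate 1 was the nearest. TJP3 rose 1.36-fold, a log2 fold change of 0.44 with an SE of 0.10 (edgeR adjusted p = 0.00658), and was called under all 17 alternatives tried, with a range of 0.33 to 0.66. It lies on chromosome 19 at 3708384 to 3750813 and overlaps APBA3. Cingulin, CGN, which links the plaque to actin and microtubules, had 22.0, 23.2 and 25.2 CPM in shTRIM21 and 22.3, 23.5 and 22.2 CPM in shControl, and its relative CGNL1 had 6.05, 5.18 and 6.95 CPM in shTRIM21 against 5.96, 4.598 and 5.11 CPM in shControl. Neither was called (log2 fold changes 0.051 and 0.21, edgeR adjusted p = 0.687 and 0.335), and their groups overlapped; the value of CGNL1 ran from 0.10 to 0.32 when single libraries were left out. TJP1, the gene for ZO-1, was listed at 0 in all 6 libraries.

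**Figure D2:**
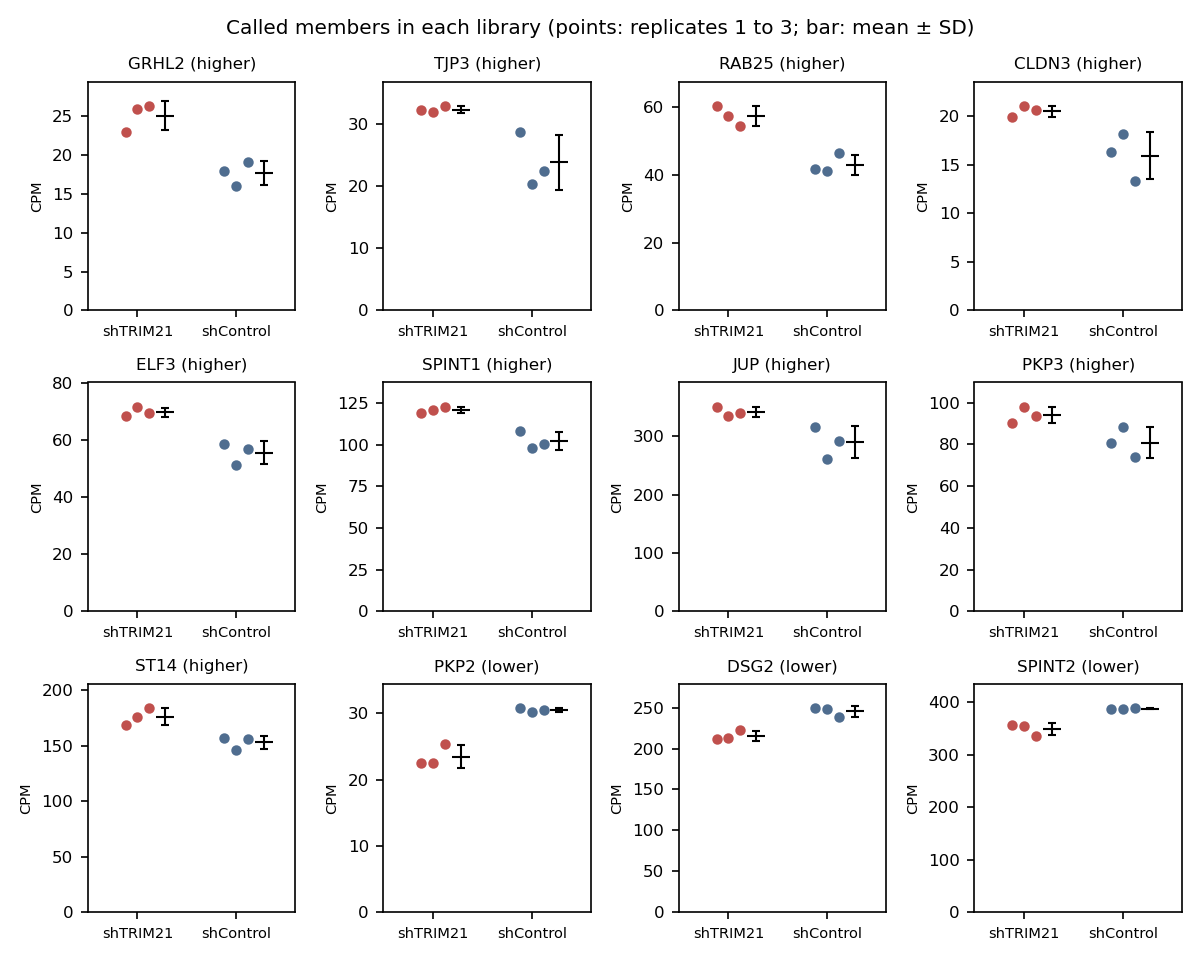
Level in CPM (vertical axes, from 0) of the 12 called members in each of the 6 libraries, shTRIM21 left and shControl right; points are replicates 1 to 3 and bars the mean ± SD. In none of the 12 panels do the groups overlap; in shControl, TJP3 and JUP are lowest in replicate 2, while CLDN3 and PKP3 are lowest in replicate 3.

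Of 8 tested desmosomal genes 2 were higher and 2 lower, beside 9.77% and 11.0% of all tested genes. Without shTRIM21 replicate 2, JUP, PKP3 and DSG2 lost their calls, which left 0 higher and 1 lower, when 12% of all tested genes were called. Among the cadherins DSG2 fell. DSG2, the desmoglein of simple epithelia, had 212, 212 and 222 CPM in shTRIM21, against 249.4, 248.8 and 238 CPM in shControl. The groups stood apart by more than the spread within either, and DSG2 fell by 12.2%, a log2 fold change of -0.19 with an SE of 0.050 (edgeR adjusted p = 0.0152). The call was lost without shTRIM21 replicate 2 (edgeR adjusted p = 0.0799) and without shControl replicates 1 and 3 (edgeR adjusted p = 0.0631). With library sizes alone its direction turned, to 0.021, and it was not called. DSG2 lies on chromosome 18 at 31498177 to 31549008, where DSG2-AS1 overlaps it. Its partners in the strand, the desmocollins, differed little: DSC2 had 50.4, 53.9 and 56.6 CPM in shTRIM21 against 55.7, 50.7 and 52.8 CPM in shControl. DSC3 had 17.0, 19.99 and 19.05 CPM in shTRIM21 against 19.6, 17.7 and 18.2 CPM in shControl. Both log2 fold changes were 0.015 and their intervals, -0.12 to 0.15 and -0.17 to 0.20, include 0. The keratinocyte desmoglein gene DSG3 was not tested, with 2, 5 and 1 counts in shTRIM21 and 3, 1 and 1 in shControl.

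In the desmosomal plaque, PKP2 and PKP3, both encoding armadillo-repeat proteins that bind desmoplakin, went in opposite directions. PKP2, on chromosome 12 at 32790755 to 32896777, had 22.5, 22.5 and 25.4 CPM in shTRIM21, against 30.8, 30.2 and 30.5 CPM in shControl. All shTRIM21 libraries lay below the narrow range of shControl, and PKP2 had the largest fall of the members at a log2 fold change of -0.38 with an SE of 0.073 (edgeR adjusted p = 0.00204). With library sizes alone it was -0.16 and not called, and a pseudogene, RPL35AP27, overlaps it. PKP3, on chromosome 11 at 392596 to 404908, had 90.2, 97.9 and 93.7 CPM in shTRIM21 and 80.5, 88.2 and 73.7 CPM in shControl. The highest shControl library came close to the lowest shTRIM21 library, and the rise of 0.22 (SE 0.066, edgeR adjusted p = 0.0304) lost its call with library sizes alone, without shTRIM21 replicate 2 or 3, without shControl replicate 1 or 3, and without shControl replicates 1 and 3 together, where it was 0.084 (edgeR adjusted p = 0.525).

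JUP, or plakoglobin, shared by desmosomes and adherens junctions, had 349.9, 334 and 340.3 CPM in shTRIM21, against 315, 261 and 293 CPM in shControl. No shControl library reached the lowest shTRIM21 library, and JUP rose 1.18-fold, a log2 fold change of 0.24 with an SE of 0.063 (edgeR adjusted p = 0.0152). JUP lost the call without shControl replicate 2, its lowest library, where the log2 fold change was 0.17 (edgeR adjusted p = 0.0535), and without shTRIM21 replicate 2. It lies on chromosome 17 at 41754609 to 41786711. Desmoplakin, DSP, the link to keratin, had 272, 298 and 322 CPM in shTRIM21 and 311, 307 and 306 CPM in shControl. The shTRIM21 libraries spread to both sides of the shControl libraries, and the log2 fold change of -0.050 was not called (0.16 with library sizes alone). PKP4 had 61.0, 62.4 and 71.5 CPM in shTRIM21 and 63.6, 67.6 and 65.5 CPM in shControl (log2 fold change -0.013, or 0.20 with library sizes alone), and PKP1, the plakophilin of skin, was not tested at 0, 4 and 2 counts in shTRIM21 against 2, 0 and 5 in shControl.

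Of the regulators, GRHL2 and ELF3 rose and GRHL1 and ESRP2 were not called. GRHL2, a grainyhead-like transcription factor whose targets include junction genes, had 23.0, 26.0 and 26.3 CPM in shTRIM21, against 17.9, 16.0 and 19.1 CPM in shControl. This was the largest change among the members, 1.42-fold or 0.51 on the log2 scale with an SE of 0.088 (edgeR adjusted p = 0.000971), with no overlap between groups and a range of 0.44 to 0.73, always called, over the alternatives. GRHL2 lies on chromosome 8 at 101492439 to 101681200, and 3 other annotated genes overlap it, among them GRHL2-DT. GRHL1 had 6.80, 6.79 and 7.13 CPM in shTRIM21 and 6.89, 6.20 and 6.93 CPM in shControl, with overlapping groups and a log2 fold change of 0.050. ELF3, an epithelial ETS-family factor on chromosome 1 at 202010587 to 202017183, had 68.5, 71.5 and 69.4 CPM in shTRIM21, against 58.7, 51.2 and 56.9 CPM in shControl. All shTRIM21 libraries of ELF3 were above all shControl libraries, a rise of 0.33 on the log2 scale with an SE of 0.063 (edgeR adjusted p = 0.00185), and it was called under every alternative. ESRP2 had 40.3, 37.3 and 38.3 CPM in shTRIM21 and 39.3, 45.8 and 44.1 CPM in shControl; its groups overlapped and its log2 fold change of -0.16 (0.052 with library sizes alone) was not called (edgeR adjusted p = 0.129), though without shControl replicate 1 it was.

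Among the surface proteins and their traffic, RAB25 had the smallest p-value of all members. RAB25, a small GTPase of epithelial recycling endosomes, had 60.3, 57.4 and 54.6 CPM in shTRIM21, against 41.6, 41.1 and 46.4 CPM in shControl. The gap between the groups exceeded the range within either, and RAB25 rose by 0.42 on the log2 scale with an SE of 0.067 (edgeR adjusted p = 0.000508). It was called under every alternative, from 0.38 to 0.63. RAB25 lies on chromosome 1 at 156061160 to 156070504 and no other annotated gene overlaps it. EPCAM, which encodes an epithelial adhesion protein that binds CLDN7, had 191, 201 and 200.2 CPM in shTRIM21 and 175, 202 and 163 CPM in shControl. Its shControl replicate 2 was above every shTRIM21 library, and EPCAM was not called (log2 fold change 0.13, edgeR adjusted p = 0.180). Without that library the log2 fold change was 0.22 and called (edgeR adjusted p = 0.0156), and without shControl replicates 1 and 3 it was -0.037.

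Matriptase and its inhibitors did not move together. ST14, encoding the membrane serine protease matriptase, had 169, 176 and 184 CPM in shTRIM21, against 157, 146 and 156 CPM in shControl. SPINT1, which encodes its Kunitz-type inhibitor HAI-1, had 119, 121 and 123 CPM in shTRIM21 against 108, 98.1 and 101 CPM in shControl. Both rose without overlap of the groups, ST14 by 0.20 and SPINT1 by 0.24 on the log2 scale, each with an SE of 0.054 (edgeR adjusted p = 0.0158 and 0.00554). SPINT1 was called under every alternative, while ST14 missed the threshold with library sizes alone and without shTRIM21 replicate 2, shTRIM21 replicate 3 or shControl replicate 2, with edgeR adjusted p-values from 0.0549 to 0.0805. SPINT2, encoding the related inhibitor HAI-2, had 356.5, 355.5 and 337 CPM in shTRIM21, against 387, 387 and 389 CPM in shControl. Its shControl libraries lay within 3 CPM of each other, above every shTRIM21 library, and SPINT2 was lower by a log2 fold change of -0.15 (SE 0.049, edgeR adjusted p = 0.0438). The call was lost with upper-quartile scaling and without any single library, and the value was 0.060 with library sizes alone. SPINT1 lies on chromosome 15 at 40844048 to 40858207, where SPINT1-AS1 overlaps it, ST14 on chromosome 11 at 130159782 to 130210362 and SPINT2 on chromosome 19 at 38264573 to 38292615. PRSS8, encoding the membrane-anchored protease prostasin that acts with matriptase, had 36.9, 34.1 and 34.5 CPM in shTRIM21 and 36.5, 29.2 and 35.3 CPM in shControl, overlapping and not called (edgeR adjusted p = 0.634).

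Within 1 library, the ratio of 2 genes does not depend on scaling, since the library size cancels. For 11 pairs of related members, chosen after their values were seen, counts per length were divided within each library, and no test was made. PKP3 over PKP2 was 6.15, 6.66 and 5.65 in shTRIM21, against 4.01, 4.47 and 3.71 in shControl, the largest relative shift of the pairs at 1.52 times. SPINT1 over SPINT2 was 0.197, 0.200 and 0.215 in shTRIM21 and 0.165, 0.149 and 0.153 in shControl. JUP over DSP was 3.60, 3.14 and 2.96 in shTRIM21 and 2.84, 2.38 and 2.68 in shControl. For each of these 3 pairs every shTRIM21 ratio was above every shControl ratio, by a narrow gap for JUP over DSP; as the pairs were chosen for their values, this restates those values and supports nothing further. CLDN7 over CLDN4 was 2.35, 2.46 and 2.14 in shTRIM21 and 1.84, 1.98 and 1.96 in shControl. The size of this ratio, though not its relative shift, rests on the length taken for CLDN4. That length was 4163 bases, against 1695 bases for the RefSeq gene, so the ratio does not show which claudin is more abundant. DSG2 over DSC2 was 8.88, 8.32 and 8.30 in shTRIM21 and 9.46, 10.4 and 9.53 in shControl. The direction of each ratio depends on which gene is on top, so the directions of the 11 pairs support nothing further either. GRHL2 over GRHL1 averaged 2.47 ± 0.156 in shTRIM21 and 1.80 ± 0.0656 in shControl (SD, n = 3 each). The groups overlapped for RAB25 over EPCAM and for no other pair.

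**Figure D3:**
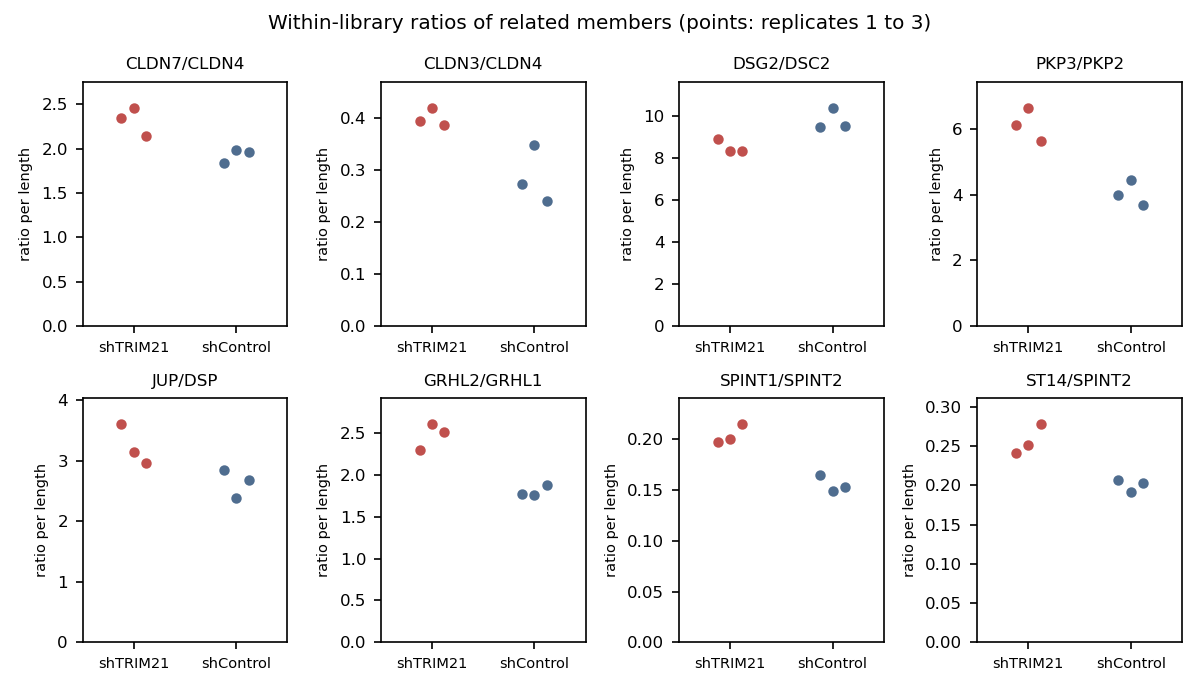
Ratio of counts per length between related members within each library (vertical axes, from 0), shTRIM21 left and shControl right; points are replicates 1 to 3. The groups do not overlap in any of the 8 panels, with DSG2 over DSC2 lower and the other 7 ratios higher in shTRIM21. The panels are a subset of the pairs, which were chosen after their values were seen. RAB25 over EPCAM, whose groups overlap, is not drawn, and each direction depends on which gene is on top.

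Levels were compared between members as CPM per kb of the principal transcript in GENCODE release 29. SPINT2 stood highest, at 194 ± 6.16 CPM per kb in shTRIM21 and 215 ± 0.682 in shControl (SD, n = 3 each). EPCAM followed with 115 ± 3.15 CPM per kb in shTRIM21 and 104 ± 11.4 in shControl. JUP had 97.6 ± 2.28 CPM per kb in shTRIM21 and 82.8 ± 7.79 in shControl, and CLDN7 had 93.1 ± 3.80 in shTRIM21 and 84.3 ± 2.52 in shControl; in shControl the means of JUP and CLDN7 lay closer than their SDs. RAB25 stood at 51.7 ± 2.60 CPM per kb in shTRIM21 and 38.8 ± 2.65 in shControl. Occludin, at 5.28 ± 0.0135 CPM per kb in shTRIM21 and 5.44 ± 0.158 in shControl, was far below the abundant claudins, and CLDN2 was lowest of the tested members at 0.294 ± 0.0584 CPM per kb in shTRIM21 and 0.372 ± 0.114 in shControl. The place of CLDN4, 40.2 ± 1.32 CPM per kb in shTRIM21 and 43.9 ± 2.88 in shControl, rests on the annotation, whose principal transcript of 4163 bases exceeds the 1695 bases of the RefSeq gene. Within groups, the coefficient of variation over the tested members had a median of 4.33% in shTRIM21 and 6.10% in shControl, and CLDN2 had the highest in both.

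**Figure D4:**
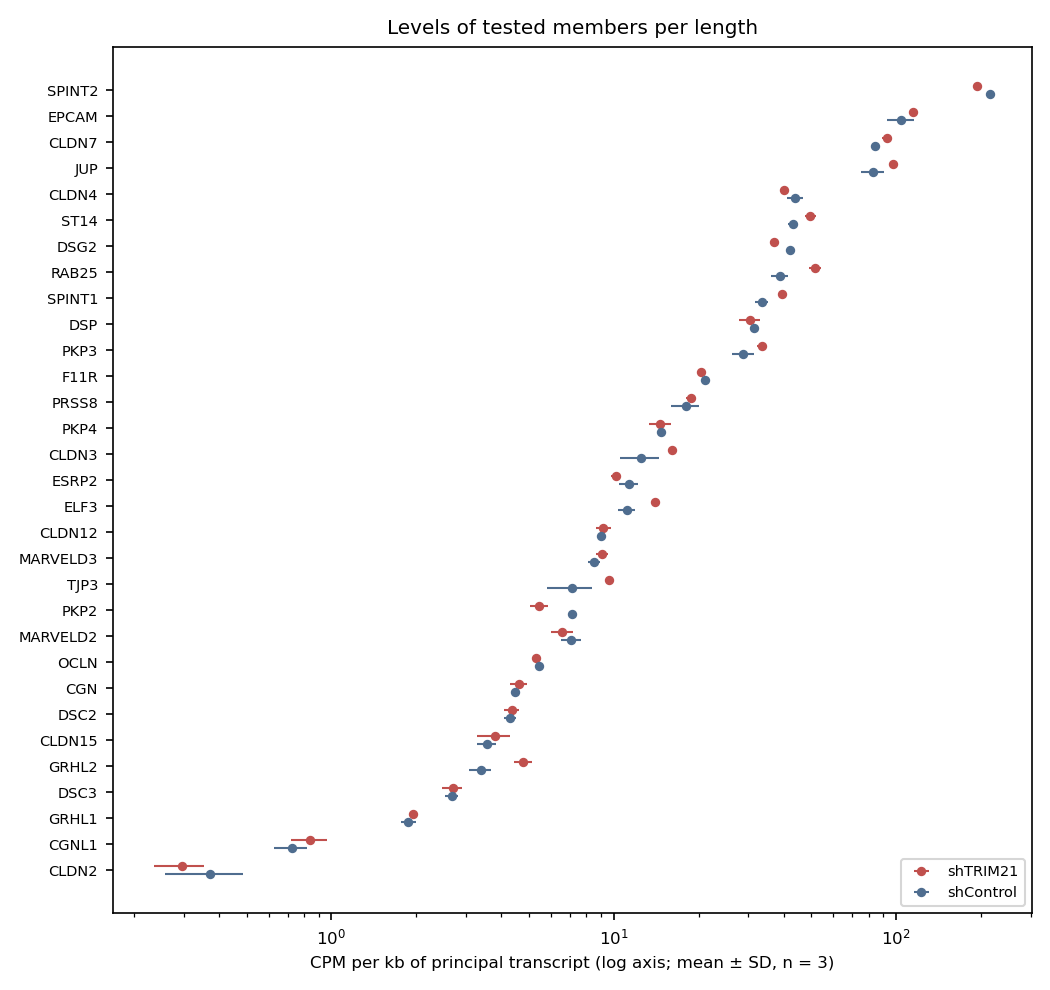
Level of the 31 tested members in CPM per kb of principal transcript (horizontal log axis; mean ± SD, n = 3), shTRIM21 in red above shControl in blue, ordered by the shControl mean. Levels span from 0.294 (CLDN2 in shTRIM21) to 215 CPM per kb (SPINT2 in shControl).

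A wider set, from 5 lists of junction genes and epithelial regulators outside the members, held 79 tested genes. Of these, 16 were higher and 16 lower in shTRIM21 (40.5% called, beside the 20.8% above). These lists, like the members, were chosen with earlier results of these data known, so their shares are descriptions. In the tight junction and polarity list 6 of 36 tested genes were higher and 4 lower (27.8% called, beside the same 20.8%). The median log2 fold change of this list was -0.017. CXADR, encoding an adhesion receptor of the tight junction, averaged 24.6 ± 1.75 CPM in shTRIM21 and 17.97 ± 2.21 CPM in shControl (SD, n = 3 each; log2 fold change 0.45, edgeR adjusted p = 0.00361). RAB13, a GTPase of junction assembly, rose by 0.28 on the log2 scale, LIN7A by 0.81 and ILDR2 by 0.63; without shControl replicates 1 and 3 these 3 were not called. ARHGEF2, a RhoA exchange factor held at tight junctions by cingulin, averaged 46.4 ± 1.85 CPM in shTRIM21 and 65.0 ± 3.04 CPM in shControl (log2 fold change -0.49, edgeR adjusted p = 5.72e-05), a call lost with library sizes alone, as was that of AMOTL1 (-0.28), which was also lost without shControl replicates 1 and 3. AMOTL2 was at -1.05, and DLG1, at -0.20, lost its call under 7 alternatives, in 1 of which (library sizes alone) it turned to 0.0068.

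Among 15 tested adherens junction genes 3 were higher and 2 lower (33.3% called, beside 20.8% of all tested genes), with a median log2 fold change of 0.14. CDH3, the P-cadherin gene, averaged 151 ± 6.46 CPM in shTRIM21 and 129 ± 4.55 CPM in shControl (SD, n = 3 each; log2 fold change 0.22, edgeR adjusted p = 0.00953), a call lost with library sizes alone, and NECTIN1 rose by 0.34 and CDH1 by 0.57. Vinculin, VCL, and the actin-binding LIMA1 fell, by 0.42 and 0.37 on the log2 scale. With library sizes alone they stood at -0.20 and -0.15 and were not called. Of 7 tested genes in a list of desmosome, plakin and related genes 2 were higher and 2 lower (57.1% called, beside the same 20.8%). PPL and EVPL, encoding periplakin and envoplakin, changed by 0.50 and 0.24 (edgeR adjusted p = 0.000169 and 0.00702), and EVPL was not called without shTRIM21 replicate 2. CTNNAL1 was at -0.72 and plectin, PLEC, at -0.33, which was not called with library sizes alone. Of 6 tested gap junction genes, 2 were higher and 3 lower (83.3% called, beside the same 20.8%). Among them GJC1 changed by -0.43, GJB2 by -0.25 and GJA3 by 0.37. GJA1 had 10, 22 and 14 counts in shTRIM21 and 0 in each shControl library. GJC1 and GJB2 were not called with library sizes alone, and GJB2 lost its call under 6 alternatives in all.

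In the list of other epithelial regulators and repressors 3 of 15 tested genes were higher and 5 lower, with a median log2 fold change of -0.11. The called share was 53.3%, beside 20.8% of all tested genes. ESRP1, the paralog of ESRP2 and likewise a splicing factor, averaged 125 ± 3.36 CPM in shTRIM21 and 106 ± 1.003 CPM in shControl (SD, n = 3 each; log2 fold change 0.24, edgeR adjusted p = 0.00386). GRHL3 had 34, 22 and 29 counts in shTRIM21 and 1, 5 and 10 counts in shControl, all shTRIM21 libraries being higher (edgeR adjusted p = 0.00576). ESRP1 and GRHL3 were not called without shControl replicates 1 and 3 (edgeR adjusted p = 0.0509 and 0.0604). OVOL1 was at 0.30, a call lost under 6 alternatives. The epithelial ETS factor gene EHF, a relative of ELF3, fell, averaging 42.9 ± 1.65 CPM in shTRIM21 and 76.4 ± 1.11 CPM in shControl (log2 fold change -0.83, edgeR adjusted p = 1.50e-07). KLF5 and KLF4 were at -0.39 and -0.42, not called with library sizes alone. The repressor gene ZEB1 averaged 3.53 ± 0.553 CPM in shTRIM21 and 5.50 ± 1.01 CPM in shControl (log2 fold change -0.64, edgeR adjusted p = 0.0153), a call lost with library sizes alone and without shTRIM21 replicate 1, shTRIM21 replicate 3 or shControl replicate 2. SNAI1 and SNAI2 were not called (log2 fold changes -0.16 and -1.12, edgeR adjusted p = 0.196 and 0.110).

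Promoter sequences from RefSeq (GRCh38.p14, 250 bases before to 50 after each start site) were matched for 26 of the 37 members and searched on both strands for 4 words. Called members without an entry were GRHL2, PKP3 and ST14, which were higher, and PKP2 and SPINT2, which were lower. CACCTG, the core letters of the sites that ZEB and SNAI repressors are known to bind, stood in at least 1 promoter of 13 of these 26 members, beside 24.1% of all 27305 genes with an entry. All 6 higher members with an entry held it, as did DSG2, the only lower member with an entry, and so did 4 of 14 uncalled members, namely CLDN7, OCLN, DSC2 and DSP, and 2 of 5 untested ones. These groups are small, the word was examined with the calls known, and no test was made. The word AACCNGTT, known from grainyhead-like factors, stood in 1 member (CGN, 3.85% against 2.14%), and GGGCGG, known from SP and KLF factors, in 20 (76.9% against 48.3%). TGANTCA, with N any base and so looser than the site known from AP-1, stood in 4 members (15.4% against 9.37%). None of the 4 words contains another. TJP3, JUP and SPINT1 have 2 start sites each in the table and held the word at only 1 of them. These matches are a description of letters, and binding was not measured. Below are 28-base stretches around the word in the 6 higher members, read 5′ to 3′ on the strand of the gene, with CACCTG or its reverse complement in capitals, shown so that the shared word can be seen in its surroundings.
RAB25, chr1:156061108-156061135, plus strand: atctctccaccCACCTGggccccaggtc
ELF3, chr1:202010456-202010483, plus strand: aatatgcaaatCACCTGgggccaggagc
CLDN3, chr7:73770221-73770248, minus strand: cacaaagccacaggCAGGTGcaggcgca
TJP3, chr19:3721719-3721746, plus strand: aggaagaggggCAGGTGcagccgggagc
JUP, chr17:41786014-41786041, minus strand: gactctggcccCACCTGccgagcaggtg
SPINT1, chr15:40844440-40844467, plus strand: cccgggctgatCAGGTGtgtctcctcct
The word began 41 bases before the start site in RAB25, at offset -41, and at offsets -120 in ELF3, 36 in CLDN3, -7 in TJP3, -54 in JUP and -26 in SPINT1. In JUP a second copy followed on the other strand at offset -43, the lower-case caggtg at the end of its stretch, and RAB25 held another copy at offset 37. Further copies were not particular to higher members: the lower DSG2 and the uncalled CLDN7, OCLN and DSP also held more than 1. Apart from the shared 6 letters the stretches differ. The upstream sequence of ELF3, whose word lies farthest from the start site, is given for its 250 bases before the start site, chr1:202010337-202010586, plus strand, with the word in capitals.
ELF3 upstream: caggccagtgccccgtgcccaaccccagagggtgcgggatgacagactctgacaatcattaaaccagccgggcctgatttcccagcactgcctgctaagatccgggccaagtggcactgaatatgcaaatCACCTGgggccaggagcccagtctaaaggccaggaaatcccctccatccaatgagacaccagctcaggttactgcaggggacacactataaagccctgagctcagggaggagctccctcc

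The choice of library scaling bore on the balance of the calls: with TMM 47.0% of all called genes were higher in shTRIM21, with upper-quartile factors 62.1% and with library sizes alone 93.0%. With library sizes alone, the median over the tested genes stood at a log2 fold change of 0.22. Measured from that median, the 3 lower members stood at -0.20 (DSG2), -0.38 (PKP2) and -0.16 (SPINT2). GRHL2, TJP3, RAB25, CLDN3, ELF3, SPINT1 and JUP were called under all 3 scalings. The TMM factors were 1.03 to 1.13 in shTRIM21 and 0.815 to 1.09 in shControl, lowest in the 2 libraries with the largest ribosomal RNA share, and the part of that share in the results was not tested beyond this: leaving the ribosomal RNA rows out gave 9 members higher and 3 lower, the same as with them.

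**Figure D5:**
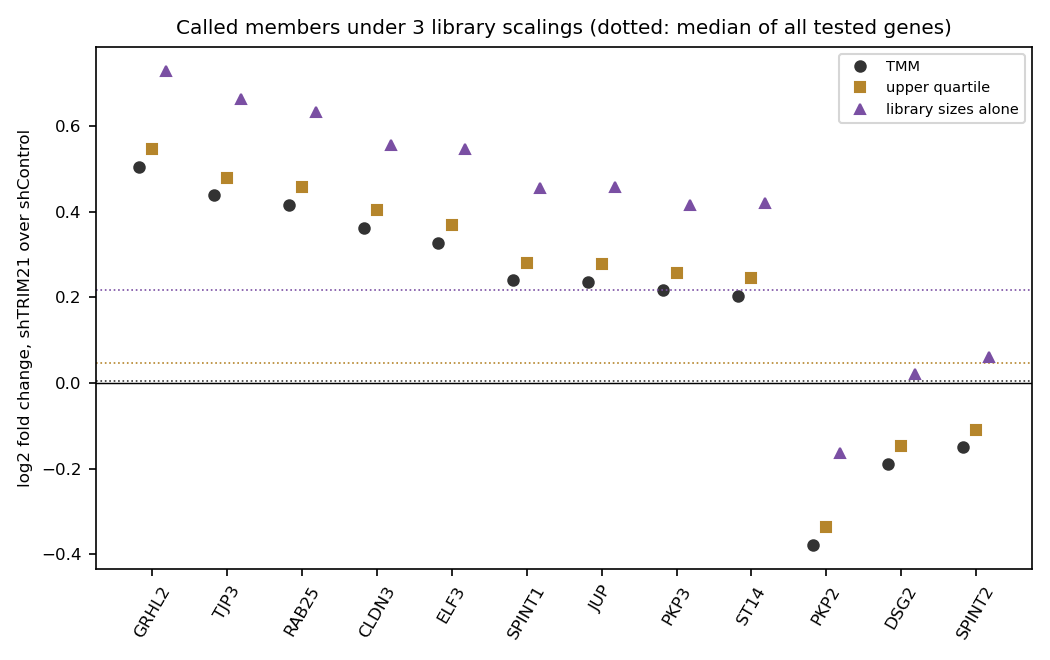
Log2 fold change of shTRIM21 over shControl (vertical axis) of the 12 called members with TMM, upper-quartile factors and library sizes alone; dotted lines mark the median of all tested genes under each. All members shift together with that median, and with library sizes alone DSG2 (0.021) and SPINT2 (0.060) lie above 0 while PKP2 (-0.16) stays below.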

How the data were processed

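RNA depleted of ribosomal RNA was sequenced, per the labels' protocols; the source label says mouse, while the organism field, the line and the symbols are human. What the authors deposited is a table of raw counts for each library, by gene symbol. The submitters' processing notes list TopHat2, edgeR 3.38.1, limma 3.52.2 and hg38, giving none of them a role. The counting program, annotation and strand setting were not stated in the sources used here, so overlapping or antisense genes may share reads.

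Tests were run in edgeR 4.0.16 (R 4.3.3; limma 3.58.1). After filterByExpr with a minimum count of 10 and a minimum total of 15, TMM factors were computed and a quasi-likelihood F test compared the arms over all 6 libraries with no covariate. Benjamini-Hochberg adjustment covered 15131 genes, and an adjusted p under 0.05 was called. Each SE was obtained as the log2 fold change over the square root of F. Members and gene lists were chosen with earlier results of these data known. Values in every library are given for called members, for members at 1 CPM or more whose groups did not overlap, and for up to 3 uncalled members per role. From each other list up to 4 called genes per direction were named by smallest p-value, with a further called regulator, ZEB1, and some are not reported here; the ratios, promoter words, SNAI1 and SNAI2 were added after their values were seen. Alternatives were other scalings, filters and tests (DESeq2 1.42.0, limma voom), a replicate block, leaving out ribosomal RNA rows and leaving out libraries. The labels give no batch. Libraries of a group differed by more than counting noise (chi-square per degree of freedom 4.54 to 10.1), and each was counted as a sample.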

Additional observations from a re-analysis of the deposited data

How the results depend on the processing

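The counts of 9 members higher and 3 lower held with RLE factors, both other filters, DESeq2, limma voom, robust empirical Bayes and without ribosomal RNA rows. Leaving out single libraries gave 5 to 9 members higher, 1 to 3 lower and 1844 to 2592 called genes in all, each minimum without shTRIM21 replicate 2. Library sizes alone gave 0 members lower, 1969 called genes, 5 genes of the wider set lower and a members' median log2 fold change of 0.27. The cause was not tested beyond the shift of all genes to 0.22. An alternative chosen once the data had been seen left out shControl replicates 1 and 3: 1 member was lower, 1958 genes were called in all, 9 other junction genes were higher, and the uncalled CGN and EPCAM turned to -0.0069 and -0.037. With library sizes alone the sign turned for CLDN4 (0.092), OCLN (0.17), MARVELD2 (0.097), F11R (0.17), DSG2 (0.021), DSP (0.16), PKP4 (0.20), ESRP2 (0.052), SPINT2 (0.060) and DLG1 (0.0068), and with upper-quartile factors for F11R (1.8e-05) and PKP4 (0.028). Leaving out single libraries, log2 fold changes of uncalled members near 0 crossed it: CLDN12 ran from -0.031 to 0.057, CLDN15 from -0.0068 to 0.18, CGN from -0.0028 to 0.093, DSC2 from -0.026 to 0.057, DSC3 from -0.044 to 0.077, DSP from -0.11 to 0.0082, PKP4 from -0.089 to 0.029, GRHL1 from -0.0021 to 0.071 and PRSS8 from -0.031 to 0.12. Over 527 values of members under alternatives, 467 kept direction and side of the threshold. With the direction kept, 28 lost the call and 4 gained it. A further 28 changed sign, among them DSG2 and SPINT2 with library sizes alone, which also lost their calls. GRHL2, TJP3, RAB25, ELF3 and SPINT1 were called under all 17 alternatives.

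Same-numbered replicates did not deviate together (correlations -0.013, 0.0057 and -0.080), so the numbers were not taken as pairs; with the replicate block 9 members were higher and 2 lower, SPINT2 losing its call, and 2905 genes were called. Members at 5 counts or fewer in most libraries (CLDN1, CLDN6, DSG3, PKP1) are below what this depth can compare.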
